A study of Mus musculus with 4 samples.

Results

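A list of 39 NRF2, antioxidant and glutathione genes was followed through human tumor-infiltrating cells of 14 humanized mice. The list holds regulators as well as enzymes, and a place in it does not show that NRF2 drove a gene in these cells. Members were taken by gene symbol. Of the 39, 38 had a row among the 36601 genes of the count matrices and at least 1 UMI in the gated cells, and GPX1 was not analysed here. A UMI is a tag that marks a single captured RNA molecule. UMIs were summed per mouse and cell class and are given as CPM, the UMIs of a gene per 1000000 UMIs of that class in that mouse, a scale that is compared between classes and mice but not between genes.

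NRF2, encoded by NFE2L2, is a transcription factor that KEAP1 holds for degradation in unstressed cells. Oxidants and electrophiles release it from KEAP1, and with small MAF proteins it switches on genes for cystine uptake, glutathione synthesis, thioredoxin recycling, NADPH supply and detoxification, whereas BACH1 represses many of the same genes. In macrophages the pathway is known for buffering the oxidants that these cells produce and the heme and iron that they take up.

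The mice were MISTRG animals, which carry human cytokine genes and had received human fetal CD34+ blood stem cells. By this design the human leukocytes came from grafted progenitors growing in a mouse, and the origin of single cells was not tested. Each bore an orthotopic tumor of MDA-MB-231, a human triple-negative breast cancer line, in the mammary fat pad. Per treatment there were 7 mice, either untreated or given the drug maraviroc in their drinking water, and the study asked how the drug changed human tumor-associated macrophages (TAMs). Human CD45+ cells were sorted from the tumors, tagged by mouse with hashtag antibodies and captured in 2 pooled 10x reactions, reaction 1 with 4 untreated and 3 maraviroc-treated mice and reaction 2 with 3 and 4. Treatment was read from the hashtag names in the feature lists, and ages of the animals were not used here.

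After filtering, 19817 cells remained, and 12016 of them passed the marker gate of a class. The reactions differed in depth, with a median of 3020 UMIs per kept cell in reaction 1 and 9691.5 in reaction 2, and in the share of kept cells that fell into a class, 46.5% and 81.9%. Hashtag doublets, 36.5% and 24.9% of barcodes, were removed. The 2 reactions shared 136 barcodes, 123 of the kept cells carried one of these, and they were left out in an alternative. The gates gave 5573 macrophages, 1372 monocytes, 187 conventional dendritic cells, 4435 T and NK cells and 96 tumor cells that had escaped the CD45 sort and held no UMI of PTPRC. By state markers, part of the macrophages were assigned to GLUT1, MT1G, CXCL10, IL1A/CCL20, LYVE1 and cycling cells. Of the macrophages, 843 passed more than 1 state gate and went to the strongest. Another 1076 macrophages, selected for low state markers, were taken as cells of no state. The remaining macrophages met neither limit and belonged to none of these groups. Cells of no state are therefore a marker-low subset, not all macrophages outside the states. Macrophage markers summed to a median of 6646 CPM in macrophages and 76.8 CPM in T and NK cells, and tumor markers to 3789 CPM in tumor cells and 21.9 CPM in macrophages, which describes the gates and is no check on them, since the gates used these markers. No listed gene served as a gating marker.

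Members peaked in different classes, and the class with the highest median over mice was MT1G macrophages, mast cells or tumor cells for 6 members each, monocytes for 5, conventional or plasmacytoid dendritic cells for 3 each, GLUT1, IL1A/CCL20 or LYVE1 macrophages for 2 each, and cycling macrophages, CXCL10 macrophages or T and NK cells for 1 each. Only 4 mice held at least 10 mast cells, 3 held that many tumor cells and 3 that many plasmacytoid dendritic cells, so these peaks rest on few animals. For members of low level, such as KEAP1 and NQO1 in mast cells and SRXN1 in tumor cells, they also rest on very few UMIs per mouse. Among the regulators, NFE2L2 and its antagonist BACH1 were highest in monocytes, at medians of 481 and 771 CPM. KEAP1, the sensor, was highest in mast cells at 46.2 CPM, as was SQSTM1, the autophagy receptor p62 that sequesters KEAP1, at 599 CPM, while the small MAF gene MAFG was highest in IL1A/CCL20 macrophages at 37.9 CPM. The peak of NFE2L2 in monocytes was close to the median of 463 CPM in IL1A/CCL20 macrophages, within the spread over mice, and its lowest median was 70.0 CPM in tumor cells. Other peaks were close to the next class as well. MAFG stood at 36.2 CPM and GCLC at 29.6 CPM in MT1G macrophages, TXNRD1 at 119.98 CPM in tumor cells and UGDH at 10.4 CPM in macrophages of no state. The peaks and their counts are ranks of medians and were not tested.

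**Figure D1:**
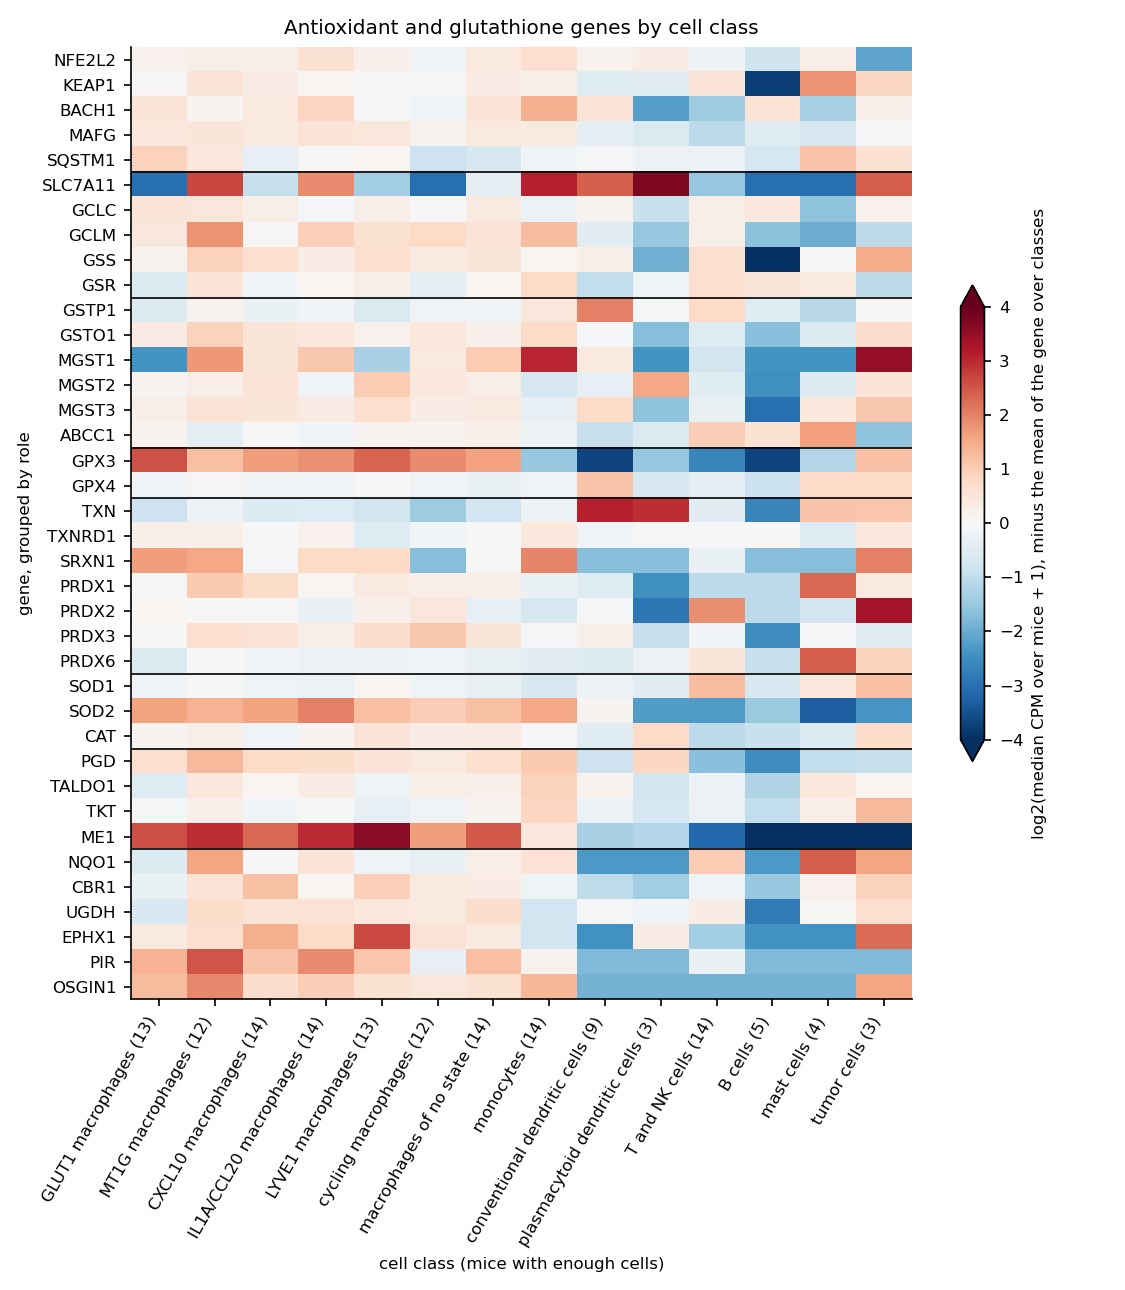
Level of each of the 38 genes (vertical axis, grouped by role) in each cell class (horizontal axis), as log2 of the median CPM over mice plus 1, minus the mean of that gene over the classes, with colors limited at 4 either way. No class was high in every gene, and examples are GCLM in MT1G macrophages (77.7 CPM) and TXN in conventional dendritic cells (3738 CPM).

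Glutathione genes were spread over several classes. SLC7A11, the cystine carrier that feeds glutathione synthesis, was highest in plasmacytoid dendritic cells at a median of 106 CPM, followed by monocytes at 68.5 CPM, with a median of 0 in mast cells. Glutamate-cysteine ligase makes the rate-limiting step, and its catalytic subunit GCLC was highest in GLUT1 macrophages at 31.1 CPM and its modifier GCLM in MT1G macrophages at 77.7 CPM. GSS, glutathione synthetase, was highest in tumor cells at 46.5 CPM and GSR, which reduces oxidized glutathione, in monocytes at 35.5 CPM. Of the transferases that conjugate glutathione, GSTP1 was highest in conventional dendritic cells at 946 CPM, GSTO1 in MT1G macrophages at 364 CPM, the microsomal MGST2 in plasmacytoid dendritic cells at 115 CPM, and MGST1 and MGST3 in tumor cells at 59.99 and 265 CPM. ABCC1, which exports glutathione conjugates, was highest in mast cells at 292 CPM. GPX3, the secreted glutathione peroxidase, was highest in GLUT1 macrophages at 73.5 CPM and GPX4, which reduces lipid peroxides in membranes, in conventional dendritic cells at 544 CPM.

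Thioredoxin, superoxide and NADPH genes had their own peaks. TXN, thioredoxin, was highest in conventional dendritic cells at 3738 CPM, followed by plasmacytoid dendritic cells at 3352 CPM, whereas TXNRD1, its reductase, was highest in monocytes at 120 CPM. The peroxide-reducing PRDX1 and PRDX6 were highest in mast cells at 2053 and 484 CPM, PRDX2 in tumor cells at 410 CPM and the mitochondrial PRDX3 in cycling macrophages at 145 CPM. SRXN1, which repairs over-oxidized peroxiredoxins, was highest in tumor cells at 12.2 CPM, close to its median of 11.6 CPM in monocytes. That tumor cell value rests on very few UMIs. The cytosolic superoxide dismutase SOD1 was highest in T and NK cells at 284 CPM, the mitochondrial SOD2 in IL1A/CCL20 macrophages at 1556 CPM and catalase, CAT, in plasmacytoid dendritic cells at 93.9 CPM. Of the genes grouped under NADPH supply, PGD was highest in MT1G macrophages at 190 CPM and TALDO1 in monocytes at 256 CPM. TKT was highest in tumor cells at 250 CPM and malic enzyme, ME1, in LYVE1 macrophages at 271 CPM. The quinone reductase NQO1, a classical NRF2 target, was highest in mast cells at 25.4 CPM, again from very few UMIs. The carbonyl reductase CBR1 was highest in CXCL10 macrophages at 81.8 CPM and the epoxide hydrolase EPHX1 in LYVE1 macrophages at 32.8 CPM. UGDH, PIR and OSGIN1 were highest in MT1G macrophages at 10.7, 18.3 and 13.2 CPM.

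All states but the cycling cells, 5 in all, were each compared with the macrophages of no state of the same mice by edgeR's quasi-likelihood test, with the mouse as a term and p-values adjusted by the Benjamini-Hochberg method over all genes tested. All these comparisons share the cells of no state, so their values are given side by side and are not independent of each other. Log2 fold changes follow edgeR's TMM scaling and can differ from the ratio of the CPM medians. The summed monocyte and platelet markers of each state are given with it, for comparison with medians of 4449 CPM (2672 to 7823) and 9.51 CPM (0 to 34.0) in the cells of no state, and except where a value without them is given their part was not tested. Calls among macrophages low in monocyte markers rest on fewer cells. The share of all genes called there is given for MT1G macrophages alone. In the other states these calls are not set against a background here. Counts of members called under DESeq2, library size alone and the other alternatives are likewise given without that share.

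**Figure D2:**
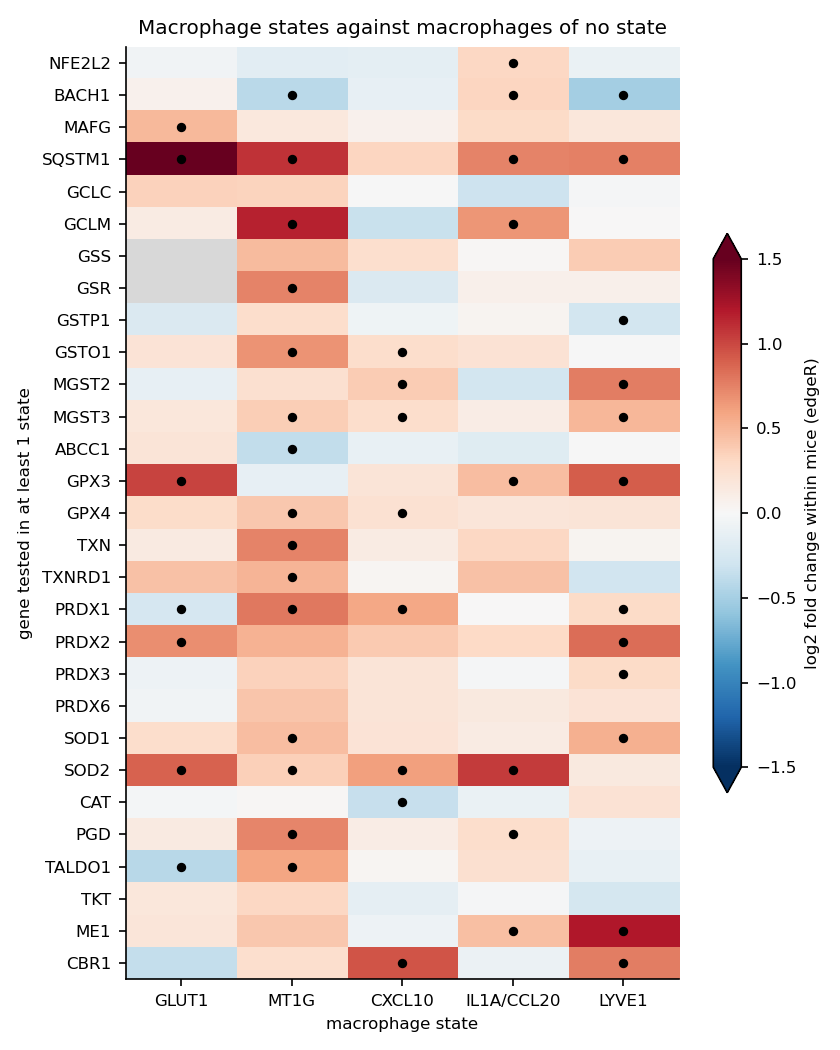
Log2 fold change of each gene (vertical axis, by role) in GLUT1, MT1G, CXCL10, IL1A/CCL20 and LYVE1 macrophages (horizontal axis) against the macrophages of no state of the same mice, in color. Black dots mark an adjusted p under 0.05 and grey cells mark genes below the count filter. SQSTM1 in GLUT1 macrophages (1.75) and ME1 in LYVE1 macrophages (1.21) had the largest values among the genes tested.

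MT1G macrophages, gated on metallothioneins, held more RNA of some members of 7 of the 8 roles than the macrophages of no state, led by GCLM, SQSTM1, PRDX1 and PGD. Of the 29 members that passed the count filter, 13 were higher and 2 lower at an adjusted p under 0.05 in 12 mice, where 15.0% of all genes tested were called in either direction and 7.98% were called higher. The median log2 fold change of the members tested was 0.40, against 0.01 over all genes. The higher genes were 2 of the 4 glutathione synthesis genes tested, 3 of the 6 thioredoxin and peroxiredoxin genes, 2 of the 5 transferase and export genes, 2 of the 3 superoxide dismutase and catalase genes, 2 of the 4 NADPH genes, 1 of the 2 peroxidases tested and 1 of the 4 regulators.

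GCLM had the largest change among those tested in MT1G macrophages. It lay between 35.1 and 216 CPM over the 12 mice with a median of 77.7, against 20.5 to 71.5 CPM with a median of 31.4 in the cells of no state. The ranges overlapped, 10 of 12 mice were higher, and the log2 fold change was 1.16 ± 0.23 (SE, adjusted p = 0.0014, edgeR). In reaction 1 alone it was 0.80 and in reaction 2 alone 1.35. PGD, the pentose phosphate enzyme that makes NADPH, did not overlap between the classes, with 155 to 269 CPM and a median of 190 against 93.3 to 136 CPM and a median of 123. It was higher in 12 of 12 mice by 0.74 ± 0.12 (adjusted p = 0.00017, edgeR). PRDX1 lay between 383 and 1367 CPM with a median of 856, against 379 to 697 CPM with a median of 502, and was higher in 12 of 12 mice by 0.79 ± 0.11 (adjusted p = 3.4e-05, edgeR), although the ranges overlapped.

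SQSTM1, itself an NRF2 target, had a median of 367 CPM against 172 CPM in MT1G macrophages and the cells of no state, was higher in 12 of 12 mice and changed by 1.08 ± 0.16 (adjusted p = 6.7e-05, edgeR). GSTO1 had a median of 364 CPM against 222 CPM and rose by 0.68 ± 0.11. TXN had a median of 380 CPM against 266 CPM and rose by 0.75 ± 0.19. The other members called higher were GSR (0.75), TALDO1 (0.59), TXNRD1 (0.51), SOD1 (0.46), GPX4 (0.40), MGST3 (0.36) and SOD2 (0.35), with adjusted p-values between 0.013 and 0.047 and values that were higher in 8 to 10 of the 12 mice. GSR rested on reaction 2, where the change was 1.16, against -0.04 in reaction 1. BACH1, the repressor, moved the other way in every mouse, from a median of 429 CPM in the cells of no state to 315 CPM, a log2 fold change of -0.40 ± 0.10 (adjusted p = 0.012, edgeR). ABCC1 fell by 0.37 on the log2 scale (adjusted p = 0.047, edgeR). NFE2L2 and the catalytic GCLC were tested and were not called.

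Several classical NRF2 targets fell below the count filter in MT1G macrophages and are given as values. SLC7A11 lay between 4.17 and 264 CPM with a median of 50.2, against 0 to 26.1 CPM with a median of 5.23 in the cells of no state, and was higher in 11 of 12 mice. In reaction 2 alone it passed the filter, with a log2 fold change of 3.24. A gene can pass this filter through the class where it is high, so no test is drawn from that value. NQO1 lay between 0 and 30.1 CPM with a median of 13.9, against 0 to 8.99 CPM with a median of 5.0, and was also higher in 11 of 12 mice.

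**Figure D3:**
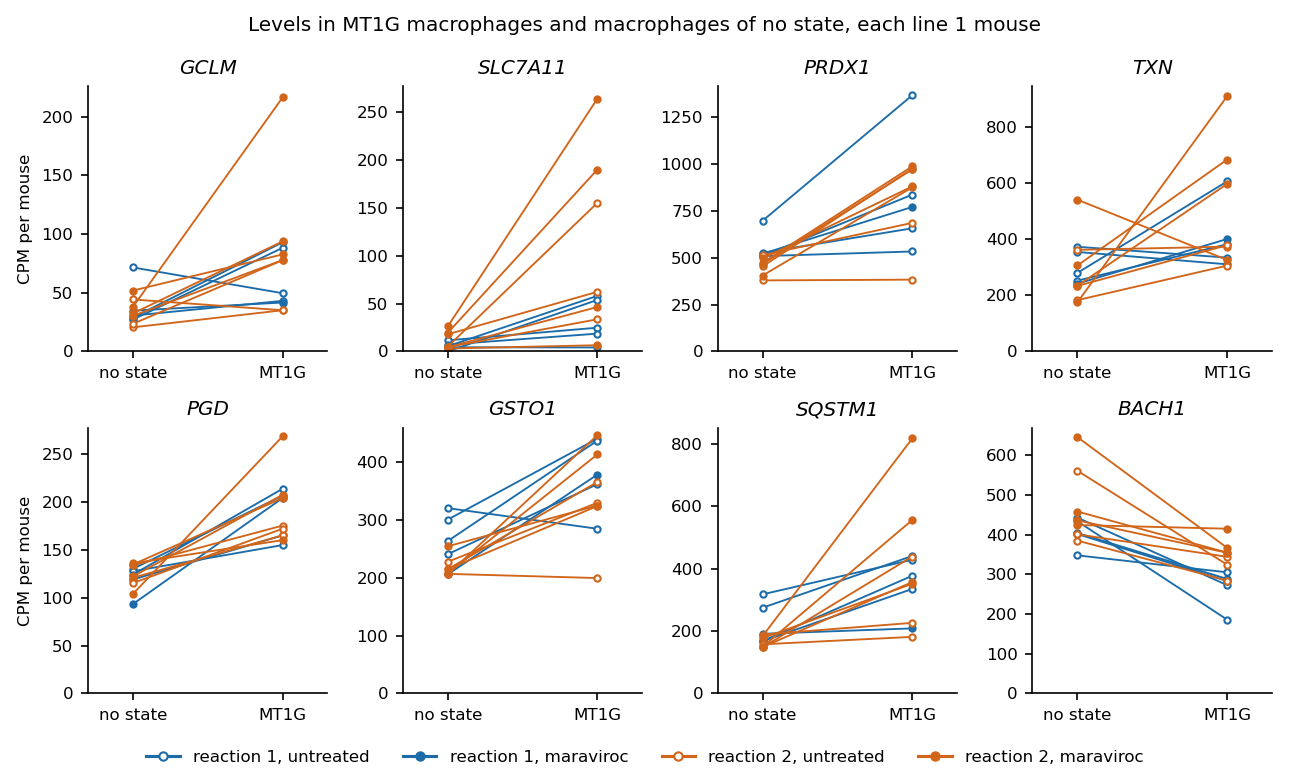
CPM per mouse of 8 genes in macrophages of no state and in MT1G macrophages, with a line joining the 2 values of each of the 12 mice. Colors mark the reaction and open or filled points the treatment. PGD, PRDX1 and SQSTM1 were higher in 12 of 12 mice, SLC7A11 in 11 of 12, GCLM and GSTO1 in 10 of 12, TXN in 9 of 12 and BACH1 in 0 of 12.

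Monocyte markers moved with the MT1G gate. The 5 monocyte genes S100A12, S100A8, S100A9, FCN1 and VCAN, of which none was at 0, summed to a median of 7124 CPM (3044 to 11598) in MT1G macrophages and 4449 CPM in those of no state, against 17229 CPM in monocytes. Of the members called higher in MT1G macrophages, GCLM, GSR, GSTO1, TXN, TXNRD1, PGD and TALDO1 were also called higher in monocytes than in all macrophages. PRDX1, SOD1 and MGST3 were called lower in monocytes, and SQSTM1, GPX4 and SOD2 were not called there. Of those called lower in MT1G macrophages, BACH1 was higher and ABCC1 lower in monocytes. The platelet genes PPBP and PF4 summed to a median of 71.3 CPM (0 to 1461) in MT1G macrophages. When macrophages were limited to those with under 20 monocyte UMIs per 10000, only 4 mice kept 10 cells in both classes. Of 22 members tested there, 0 had an adjusted p under 0.05 by edgeR, 7 had an unadjusted p under 0.05, and 20 of all 3512 genes tested were called. Log2 fold changes there were above 0 for 20 of those 22, with a median of 0.57. Among them were PRDX1 (1.07), GSTO1 (1.01), GCLM (0.98), TXN (0.97), PGD (0.88) and SQSTM1 (0.59), and BACH1 was below 0 at -0.56. For all genes, neither the median nor the share above 0 is given here. These values are therefore not set against a background and show nothing particular to the members. By cell depth the classes also differed, with a median of 8277 UMIs per MT1G macrophage and 11130.5 per macrophage of no state, and its part was not tested.

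GLUT1 macrophages, gated on SLC2A1 and the hypoxia genes ADM, HILPDA and NDRG1, differed most in SQSTM1. Of 27 members tested in 13 mice, 5 were higher and 2 lower, where 32.0% of all genes were called, and on library size alone the split was 3 higher and 4 lower. SQSTM1 lay between 280 and 1111 CPM with a median of 512, against 145 to 317 CPM with a median of 168 in the cells of no state. It was higher in 13 of 13 mice, with a small overlap of ranges, by 1.75 ± 0.15 (adjusted p = 1.9e-09, edgeR), and by 1.45 in reaction 1 and 2.07 in reaction 2. SOD2, the mitochondrial superoxide dismutase, had a median of 1160 CPM against 858 CPM and rose by 0.89 ± 0.09 (adjusted p = 6.9e-08, edgeR), in 12 of 13 mice. GPX3 had a median of 73.5 CPM against 38.9 CPM and rose by 1.02 ± 0.15 (adjusted p = 1.1e-05, edgeR), also in 12 of 13 mice. PRDX2 (0.70) and MAFG (0.48) were called higher with adjusted p-values of 0.019 and 0.038 by edgeR, and were no longer called on library size alone. By CPM, PRDX2 was higher in 9 of 13 mice. MAFG was higher in 7 and lower in 6, with medians of 34.7 CPM against 34.0 CPM in the cells of no state. TALDO1, a pentose phosphate enzyme, had a median of 93.7 CPM against 155 CPM and was lower in all 13 mice by -0.41 ± 0.11 (adjusted p = 0.0058, edgeR), and PRDX1 was lower in all 13 by -0.25 ± 0.09 (adjusted p = 0.040). Neither of the glutathione synthesis genes tested, GCLC and GCLM, was called. Monocyte markers summed to a median of 3165 CPM (1839 to 5835) and platelet genes to 22.3 CPM (0 to 598). Among macrophages low in monocyte markers SQSTM1, SOD2, GPX3 and TXNRD1 were called higher and PRDX1 lower.

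IL1A/CCL20 macrophages, the inflammatory state, had the highest SOD2. Among 29 members tested in 14 mice, 8 were higher and 0 lower, where 14.1% of all genes were called. DESeq2 called 5 higher and 0 lower, library size alone gave 4 higher and 2 lower, and 1 member was lower at an unadjusted p under 0.05 by edgeR. SOD2, a classical target of NF-kB, lay between 1170.1 and 2257 CPM with a median of 1556, against 637 to 930 CPM with a median of 859, so the ranges did not overlap. It was higher in 14 of 14 mice by 1.05 ± 0.08 (adjusted p = 3.3e-09, edgeR), and by 1.04 in each reaction. SQSTM1 had a median of 273 CPM against 172 CPM and rose by 0.74 ± 0.11 in 13 of 14 mice (adjusted p = 4.1e-05, edgeR), and GCLM had a median of 43.3 CPM against 31.4 CPM and rose by 0.66 ± 0.19 (adjusted p = 0.022). NFE2L2 itself rose by 0.31 ± 0.07 (adjusted p = 0.0042, edgeR), from a median of 393 CPM to 463 CPM, in 9 of 14 mice, and BACH1 by 0.32 ± 0.09 (adjusted p = 0.013). GPX3 (0.47), ME1 (0.45) and PGD (0.26) were called with adjusted p-values between 0.040 and 0.048. SLC7A11 was below the count filter and lay between 0 and 143 CPM with a median of 28.6, against a median of 5.23 CPM in the cells of no state, higher in 10 of 14 mice. In this state the platelet genes summed to a median of 1058 CPM (219 to 2334), above every value in the cells of no state, and monocyte markers to 5495 CPM (2396 to 10124). Among macrophages low in monocyte markers SQSTM1, SOD2, TXN and TXNRD1 were called higher and MGST2 lower.

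CXCL10 macrophages, the interferon state, were led by CBR1, SOD2 and PRDX1. Of 29 members tested in 14 mice, 7 were higher and 1 lower, where 25.0% of all genes were called. CBR1, which reduces carbonyls, lay between 60.1 and 105 CPM with a median of 81.8, against 30.8 to 60.5 CPM with a median of 44.4, the ranges barely overlapping. It rose in 13 of 14 mice by 0.94 ± 0.12 (adjusted p = 1.1e-06, edgeR). SOD2 rose in 14 of 14 mice by 0.62 ± 0.07 (adjusted p = 1.9e-07, edgeR) and PRDX1 in 14 of 14 by 0.58 ± 0.07 (adjusted p = 1.7e-06), with medians of 1156 against 859 CPM and 690 against 502 CPM. The transferases MGST2 (0.38), MGST3 (0.27) and GSTO1 (0.26) and the peroxidase GPX4 (0.22) were called with adjusted p-values between 0.011 and 0.043. CAT, catalase, was lower in 12 of 14 mice, with a median of 50.2 CPM against 68.4 CPM and a log2 fold change of -0.35 ± 0.10 (adjusted p = 0.012, edgeR). No call fell among the regulators, glutathione synthesis or NADPH genes tested there. Monocyte markers summed to a median of 2990 CPM (2012 to 6116) and platelet genes to 50.9 CPM (2.41 to 265), and among macrophages low in monocyte markers PRDX1, SOD2, TXN and CBR1 were called, all higher.

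LYVE1 macrophages, which carry markers of resident cells, were led by malic enzyme. Of 29 members tested in 13 mice, 10 were higher and 2 lower, where 29.7% of all genes were called, and on library size alone the split was 9 higher and 4 lower. ME1 lay between 152 and 494 CPM with a median of 271, against 84.6 to 220 CPM with a median of 120, and rose in 12 of 13 mice by 1.21 ± 0.12 (adjusted p = 2.8e-08, edgeR). GPX3 had a median of 63.7 CPM against 38.9 CPM and rose in 13 of 13 mice by 0.91 ± 0.12 (adjusted p = 2.5e-06, edgeR). MGST2 (0.77), CBR1 (0.76), SOD1 (0.53) and MGST3 (0.49) were also higher in 13 of 13 mice, with adjusted p-values from 7.3e-06 to 5.4e-05. PRDX2 (0.83), SQSTM1 (0.76), PRDX1 (0.28) and PRDX3 (0.28) were called with higher values in 10 to 12 of the 13 mice. BACH1 was lower in all 13 mice, with a median of 275 CPM against 404 CPM and a log2 fold change of -0.51 ± 0.08 (adjusted p = 5.0e-05, edgeR), as was GSTP1 by -0.27 ± 0.09 (adjusted p = 0.021). EPHX1, an epoxide hydrolase of detoxification, was below the count filter but did not overlap between the classes, with 15.0 to 71.5 CPM in LYVE1 macrophages and 1.80 to 11.1 CPM in those of no state. Monocyte markers were lower in this state, with a median of 2394 CPM (1098 to 2931), macrophage markers were higher, with a median of 10624 CPM against 5694 CPM in the cells of no state, and platelet genes summed to 47.6 CPM (0 to 674). ME1, GPX3, MGST2, MGST3, EPHX1, SOD1, PRDX1, PRDX2 and PRDX3 were lower in monocytes than in all macrophages, and BACH1 and GSTP1 were higher. These directions are the reverse of those in LYVE1 macrophages, and SQSTM1 was not called in monocytes. All macrophages include the LYVE1 cells, so the 2 comparisons are not independent. Among macrophages low in monocyte markers ME1 (1.22), SQSTM1 (0.87), CBR1 (0.87), PRDX2 (0.61), MGST2 (0.54), SOD1 (0.49), MGST3 (0.40) and BACH1 (-0.45) were still called, and GPX3 (0.43), PRDX3 (0.25), PRDX1 (0.06) and GSTP1 (-0.05) were not.

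Further pathway genes outside the 39, such as heme oxygenase and ferritin, were counted from a list of 57 genes, 56 of them with a row. In GLUT1 macrophages 9 of 26 tested were higher and 2 lower, beside 32.0% of all genes called in either direction. In MT1G macrophages 6 of 30 were higher and 1 lower, beside 15.0%, in CXCL10 macrophages 10 of 32 and 1, beside 25.0%, in IL1A/CCL20 macrophages 8 of 34 and 1, beside 14.1%, and in LYVE1 macrophages 11 of 33 and 1, beside 29.7%. HMOX1, for heme breakdown, and FTH1, for iron storage, were called higher in GLUT1, MT1G and IL1A/CCL20 macrophages, and FTL, the other ferritin chain, in all 5 states. SLC3A2, the partner chain of SLC7A11 in the cystine carrier, and GLRX, glutaredoxin, were both called higher in GLUT1, MT1G and CXCL10 macrophages, with SLC3A2 also in LYVE1 and GLRX also in IL1A/CCL20 macrophages.

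Monocytes, conventional dendritic cells, T and NK cells and tumor cells were each compared with all macrophages of the same mice, which these comparisons share, and B cells, mast cells and plasmacytoid dendritic cells were not tested. Monocytes held more RNA of BACH1 and NFE2L2, of SLC7A11 and of the pentose phosphate genes TKT, TALDO1 and PGD, and less of the 4 peroxiredoxins and of GPX3, EPHX1 and ME1. The other 3 of the 5 regulators, KEAP1, MAFG and SQSTM1, were not called. All 38 members with a row were tested in 14 mice, and 15 were higher and 16 lower, against a background of 61.7% of all genes called. MGST1 did not overlap, with 26.1 to 61.4 CPM and a median of 42.4 against 4.53 to 23.6 CPM and a median of 8.48, a rise of 2.30 ± 0.16 (adjusted p = 1.0e-11, edgeR). SLC7A11 lay between 36.1 and 348 CPM with a median of 68.5, against 2.01 to 38.8 CPM with a median of 15.2, and rose in 14 of 14 mice by 2.44 ± 0.25 (adjusted p = 5.5e-09). BACH1 did not overlap, with 524 to 1012 CPM against 317 to 518 CPM, a rise of 1.05 ± 0.05 (adjusted p = 3.3e-14, edgeR), while NFE2L2 rose by 0.33 ± 0.05 in 14 of 14 mice. TKT (0.97) and TALDO1 (0.80), of the pentose phosphate path, GSR (0.77), GSTP1 (0.71), SRXN1 (1.14) and GCLM (0.52) were called higher, and the remaining 5 higher genes, OSGIN1, TXNRD1, GSTO1, PGD and TXN, had log2 fold changes between 0.35 and 0.68.

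Among the genes lower in monocytes, GPX3 lay between 0 and 7.90 CPM with a median of 3.46, against 14.3 to 81.0 CPM with a median of 48.7, a log2 fold change of -3.53 ± 0.21 (adjusted p = 5.2e-13, edgeR). ME1 lay between 16.6 and 69.0 CPM against 113 to 220 CPM, a change of -2.25 ± 0.11 (adjusted p = 1.6e-14, edgeR), and EPHX1 changed by -2.32 ± 0.24. The ranges of these 3 genes over mice did not overlap between the classes. UGDH (-1.38), MGST2 (-1.01), PIR (-0.78), PRDX1 (-0.64), PRDX3 (-0.57) and SOD1 (-0.51) were also called lower, and the other 7 had log2 fold changes between -0.66 and -0.24. Among the further pathway genes, 10 of 38 tested were higher and 15 lower, beside the same 61.7% of all genes called.

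**Figure D4:**
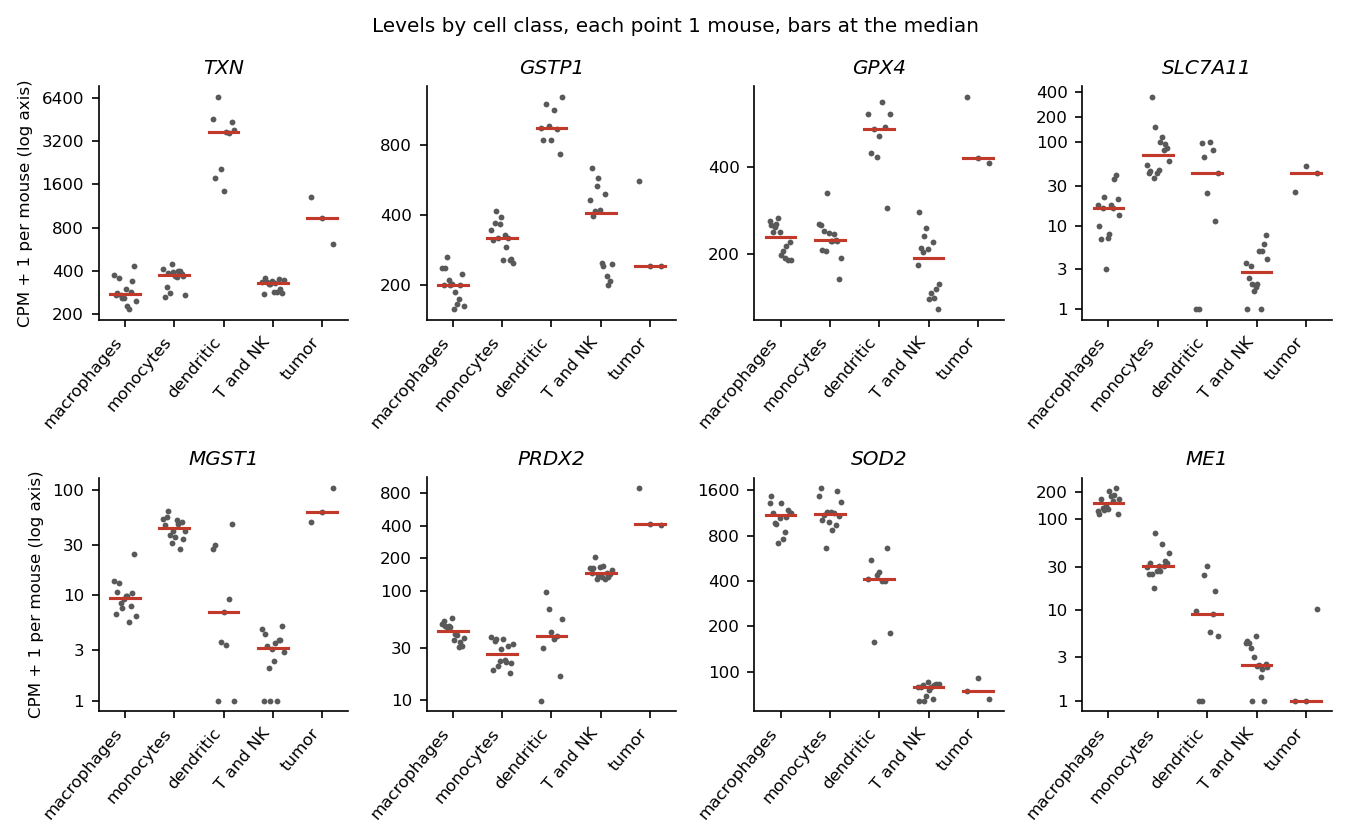
CPM plus 1 per mouse (log axis) of 8 genes in macrophages, monocytes, conventional dendritic cells, T and NK cells and tumor cells, with red bars at the median. TXN was highest in dendritic cells (median 3738 CPM), PRDX2 in tumor cells (410 CPM), and SOD2 and ME1 were lowest in T and NK cells and tumor cells.

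Conventional dendritic cells stood out by thioredoxin. Of 31 members tested in the 9 mice with enough cells, 5 were higher and 9 lower, where 39.8% of all genes were called. TXN lay between 1443 and 6566 CPM with a median of 3738, against 227 to 428 CPM with a median of 281 in macrophages, with no overlap and a log2 fold change of 3.62 ± 0.21 (adjusted p = 5.9e-11, edgeR). GSTP1, with 728 to 1283 CPM against 157 to 262 CPM, rose by 2.46 ± 0.16 (adjusted p = 2.8e-10), and GPX4, with 287 to 678 CPM against 189 to 248 CPM, by 1.43 ± 0.15 (adjusted p = 2.6e-07), neither with an overlap. SLC7A11 was higher in 6 of 9 mice by 1.67 ± 0.39 (adjusted p = 0.0017, edgeR), and MGST3 in 8 of 9 by 0.53 ± 0.15. ME1 (-3.82), SOD2 (-1.32) and PGD (-1.30) were lower in 9 of 9 mice with no overlap. GPX3 (-3.11), GCLM (-1.35), CBR1 (-0.91), MAFG (-0.78), PRDX1 (-0.71) and ABCC1 (-0.64) were lower in 7 to 9 of the 9 mice.

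Within the dendritic cells the levels differed by kind. Pooled over mice, with exact Poisson 95% intervals that cover counting error only, TXN stood at 5897 CPM (5736 to 6060) in the 67 cells with only the maturation markers LAMP3 or CCR7, 1095 CPM (960 to 1242) in the 16 cells with only CLEC9A or XCR1, and 696 CPM (632 to 765) in the 49 cells with only CD1C, FCER1A, CLEC10A or CD1E. The reactions differed in level but not in this order, with TXN at 11058, 1269 and 649 CPM in 21, 4 and 25 cells of reaction 1 and at 4246, 1045 and 729 CPM in 46, 12 and 24 cells of reaction 2. GPX4 stood at 781, 124 and 261 CPM in the same 3 kinds, highest in the LAMP3 or CCR7 cells as TXN was, but lowest in the CLEC9A or XCR1 cells. SLC7A11 stood at 95.4 CPM (76.0 to 118) in the first kind and rested on 1 and 2 UMIs in the others, at 4.58 CPM (0.116 to 25.5) and 3.24 CPM (0.392 to 11.7). GSTP1 was instead highest in the CLEC9A or XCR1 cells, with 1285, 1415 and 474 CPM in the 3 kinds. These pooled values have no test over mice, and the mix of kinds therefore enters every dendritic cell value above.

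T and NK cells held less RNA of most members. All 38 members with a row were tested in 14 mice, and 27 were lower and 7 higher, against a background of 82.6% of all genes called, of which 40.5% were lower. The median log2 fold change was -0.88, against 0.03 over all genes, and -0.60 against 0.31 on library size alone. SOD2 lay between 63.2 and 84.5 CPM, against 716 to 1455 CPM in macrophages, a change of -4.07 ± 0.09 (adjusted p = 7.1e-19, edgeR). ME1 (-6.72), GPX3 (-5.71), OSGIN1 (-3.97), EPHX1 (-3.55), PGD (-2.64), PIR (-2.60) and MGST1 (-2.35) did not overlap between the classes either, and SLC7A11 changed by -2.93 ± 0.19. Among the regulators BACH1 (-1.94), MAFG (-1.88) and NFE2L2 (-0.86) were lower in 14 of 14 mice. PRDX1 (-1.81), SRXN1 (-1.83), CAT (-1.53), MGST2 (-1.31), GSTO1 (-1.16), GCLM (-0.90), TALDO1 (-0.63) and GPX4 (-0.57) were also called lower, and the remaining 7 had log2 fold changes between -1.06 and -0.31.

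The 7 members higher in T and NK cells were led by PRDX2 and SOD1, both abundant cytosolic antioxidants. PRDX2 lay between 129 and 205 CPM with a median of 145, against 29.8 to 55.4 CPM with a median of 42.2 in macrophages, without overlap, a rise of 1.62 ± 0.07 (adjusted p = 2.6e-14, edgeR). SOD1 lay between 164 and 367 CPM against 92.0 to 130 CPM, also without overlap, a rise of 1.02 ± 0.09 (adjusted p = 2.1e-09). ABCC1 (0.56), NQO1 (0.55), GSTP1 (0.54), PRDX6 (0.38) and GSR (0.25) were called with smaller changes. The mix of cells bears on these values. Of the 4435 cells of the class, 1746 were counted as T cells and 926 as NK cells, and the rest were in neither subset. Pooled over mice, GSTP1 stood at 138 CPM (132 to 144) in these T cells and 566 CPM (550 to 583) in these NK cells. The T cell value was below the range of macrophages given with the dendritic cells, so the rise of GSTP1 need not hold for this subset, which was not tested. PRDX2 stood at 205 and 108 CPM, and SOD1 at 382 and 173 CPM. The T cell subset made up 25.7% of the class in reaction 1 and 48.1% in reaction 2, and the NK cell subset 27.0% and 17.0%. Cells in neither subset may include T cells, so these percentages need not be the full share of T cells. The levels are those of the subsets alone.

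Tumor cells could be compared in only 3 mice, all maraviroc-treated, mice 2 and 3 of reaction 1 and mouse 4 of reaction 2. These mice held 11, 13 and 14 tumor cells. Low levels such as those of MGST1, NQO1 and NFE2L2 therefore rest on few UMIs in some mice. Of 36 members tested, 10 were higher and 7 lower, where 38.1% of all genes were called. DESeq2 called 4 higher and 5 lower and library size alone gave 11 and 5. For these settings and for the mice left out below, the share of all genes called is not given. PRDX2 stood at 404, 410 and 888 CPM against 35.6 to 55.4 CPM in macrophages, a log2 fold change of 3.30 ± 0.39 (adjusted p = 4.9e-16, edgeR). MGST1 stood at 48.7, 59.99 and 102 CPM against 5.30 to 8.22 CPM, a change of 3.24 ± 0.55 (adjusted p = 2.9e-08). TXN (1.58) rose as well, and none of these 3 genes overlapped between the classes. SLC7A11 (2.15), NQO1 (1.81), TKT (1.12), SOD1 (1.06), PRDX6 (1.05) and GPX4 (0.87) were called higher with adjusted p-values between 0.0018 and 0.039. UGDH (1.69) rested on mouse 4 of reaction 2, without which its change was -1.05. NFE2L2 stood at 48.7, 70.0 and 260 CPM against 333 to 425 CPM, a change of -1.92 ± 0.42 (adjusted p = 2.7e-05, edgeR), and ME1 (-5.22), SOD2 (-3.97), PGD (-2.09), ABCC1 (-1.92), GCLM (-1.75) and BACH1 (-0.98) were also lower. With each mouse left out in turn, PRDX2, MGST1, TXN, SOD2, ME1, PGD, NFE2L2 and ABCC1 were called every time, and the count of members called lay between 9, without mouse 4 of reaction 2, and 12.

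Maraviroc-treated and untreated mice were then compared within each class, which bears on whether the drug changed the oxidative stress response of TAMs. In none of the 10 classes that could be tested was a member called by edgeR or by DESeq2, with 0.00% of all genes called by edgeR in each. In all macrophages, with 7 mice per treatment, 38 members were tested, 1 had an unadjusted p under 0.05 where 2.75% of all genes did, and the median log2 fold change was -0.06, with a range from -0.37 to 0.72. NFE2L2 changed by 0.09 with a 95% interval from -0.10 to 0.28, SQSTM1 by 0.02 (-0.25 to 0.28), GCLM by 0.09 (-0.16 to 0.33), TXN by 0.04 (-0.27 to 0.34), PRDX1 by -0.09 (-0.41 to 0.23) and GPX4 by -0.03 (-0.24 to 0.18). The intervals of 29 of the 38 members lay within 0.5 on the log2 scale on either side of 0, and the widest was that of SLC7A11, from -0.06 to 1.497.

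The member with the lowest unadjusted p in macrophages was GCLC, the catalytic subunit of glutamate-cysteine ligase. It lay between 21.8 and 32.6 CPM with a median of 27.5 in untreated mice and between 15.4 and 26.4 CPM with a median of 21.5 in maraviroc-treated mice. The groups overlapped, and the log2 fold change was -0.36 ± 0.12 (adjusted p = 0.99996, edgeR), and was -0.35 in reaction 1 and -0.38 in reaction 2. SLC7A11 lay between 5.90 and 16.5 CPM in untreated and 2.01 and 38.8 CPM in maraviroc-treated mice, a change of 0.72 ± 0.40 that was -0.16 in reaction 1 and 1.07 in reaction 2. GPX3 had medians of 48.9 and 48.5 CPM and a change of -0.37 ± 0.22.

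**Figure D5:**
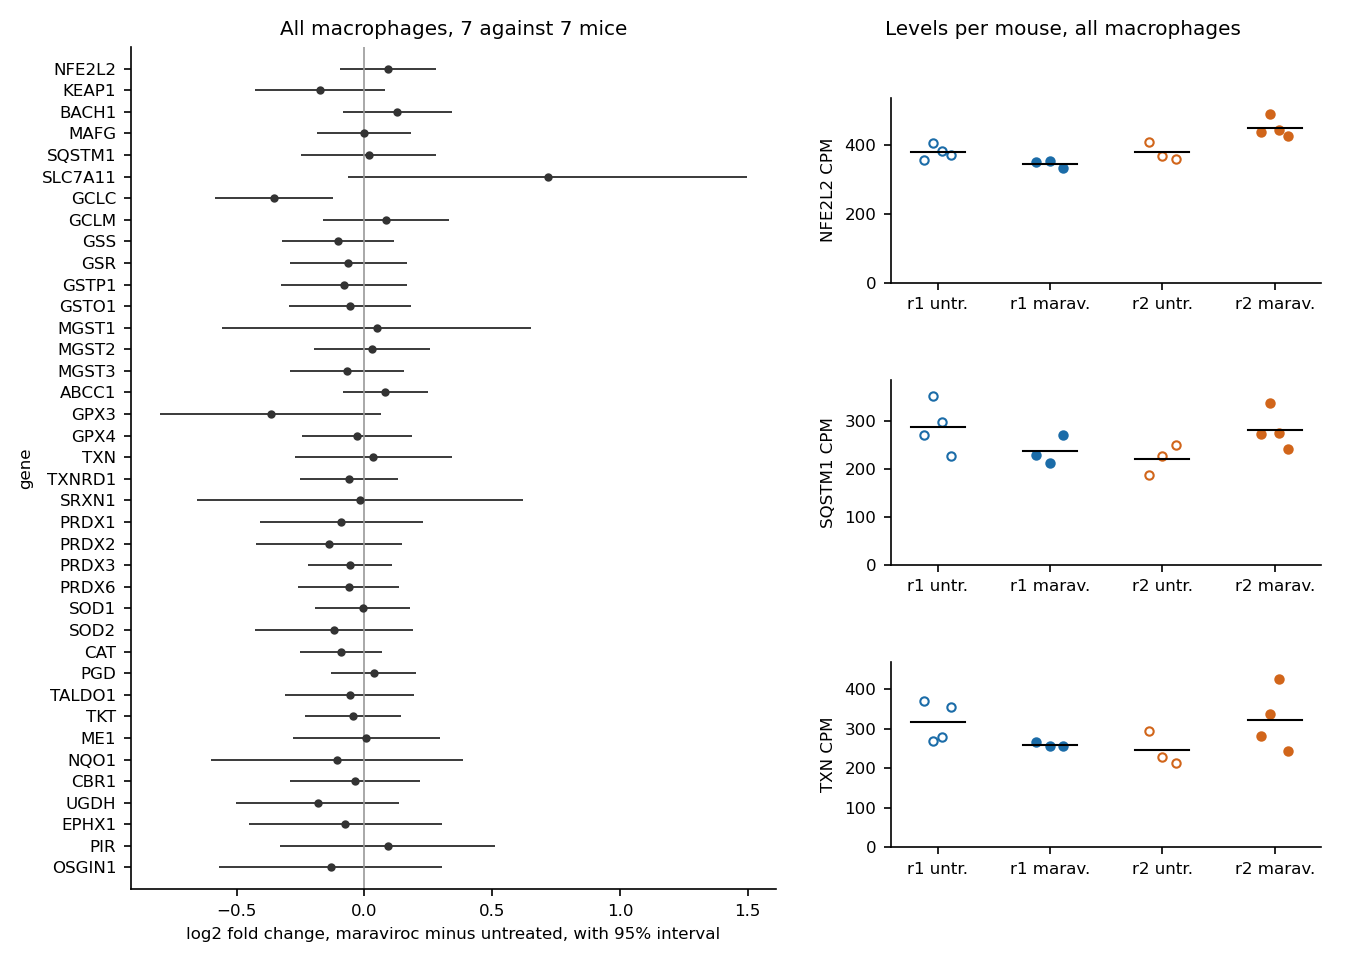
Left, log2 fold change of each of the 38 genes in all macrophages of maraviroc-treated against untreated mice, 7 each. Bars are normal 95% intervals computed from edgeR's log2 fold change and F value. Right, CPM per mouse of NFE2L2, SQSTM1 and TXN, untreated (open) and maraviroc-treated (filled), in reaction 1 (r1) and reaction 2 (r2), with bars at the mean. NFE2L2 means were 379 and 345 CPM in reaction 1 and 378 and 449 CPM in reaction 2.

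The states gave no call either. In MT1G macrophages, with 5 maraviroc-treated and 7 untreated mice, 2 of 26 members had an unadjusted p under 0.05 (2.99% of all genes). These were TXN at 0.59 ± 0.25 and GCLM at 0.85 ± 0.36 (adjusted p = 0.99998 for each, edgeR), and GCLM had a median of 49.6 CPM in untreated and 82.6 CPM in maraviroc-treated mice with overlapping ranges. Maraviroc-treated mice 1 and 2 of reaction 1 had only 8 and 5 MT1G macrophages. The treated group was therefore mouse 3 of reaction 1 and the 4 of reaction 2, against 4 and 3 untreated. The reactions differed in depth, with medians of 5340 and 14976.5 UMIs per MT1G macrophage. Treatment and reaction were thus partly mixed, and the main test had no term for the reaction. In CXCL10 macrophages 1 of 28 did (3.31% of all genes), SQSTM1 at 0.54 ± 0.18, with medians of 182 and 255 CPM. In IL1A/CCL20 macrophages 2 of 30 did (7.54% of all genes), PRDX2 at -0.66 ± 0.20 (adjusted p = 0.399, edgeR), with medians of 48.4 and 31.5 CPM, and SOD2 at -0.33 ± 0.15. GLUT1 macrophages, LYVE1 macrophages and those of no state gave 0 of 23, 0 of 30 and 0 of 30 (2.93%, 1.93% and 3.72% of all genes). The members with the lowest p there were NFE2L2 (0.33), BACH1 (0.25) and PRDX2 (-0.43) in GLUT1 macrophages, GSR (0.48), PRDX6 (-0.24) and GSS (-0.31) in LYVE1 macrophages, and GCLC (-0.41), NFE2L2 (0.24) and GSTP1 (-0.28) in those of no state.

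Outside the macrophages, conventional dendritic cells showed the largest values. SQSTM1 lay between 126 and 188 CPM in 4 untreated mice and between 256 and 466.2 CPM in 5 maraviroc-treated mice. The groups did not overlap, and the log2 fold change was 1.05 ± 0.29 (adjusted p = 0.343, edgeR), with 7.40% of all genes at an unadjusted p under 0.05 against 4 of the 19 members tested. TXN lay between 1443 and 4579 CPM in untreated and 3646 and 6566 CPM in maraviroc-treated mice, overlapping, a change of 0.90 ± 0.31 (adjusted p = 0.579), and it was called when every gene with at least 1 count was tested. CAT changed by -0.81 ± 0.37. Dendritic markers did not overlap between the treatments either, with 989 to 1042 CPM in untreated and 1071 to 2040 CPM in maraviroc-treated mice, while the medians of macrophage markers were 356 and 240.0 CPM and those of monocyte markers 881 and 593 CPM. TXN differed between the kinds of dendritic cell and in level between the reactions, as given above, and the part of these markers and of the mix of kinds in these values was not tested. The untreated mice were 3 and 4 of reaction 1 and 1 and 2 of reaction 2. The maraviroc-treated were mouse 3 of reaction 1 and the 4 of reaction 2. Treatment and reaction were thus partly mixed in this class too, and the main test had no term for the reaction. Monocytes gave 2 of 32 at an unadjusted p under 0.05 (4.05% of all genes), MGST1 at -0.38 and SQSTM1 at -0.28, followed by TKT at -0.17. T and NK cells gave 0 of 30 (4.34% of all genes), with GCLC (0.21), TALDO1 (-0.18) and BACH1 (0.27) lowest in p. None of the further pathway genes was called in any class.

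The treatment difference in macrophages was also compared between the reactions. By edgeR 0 of 38 members differed at an adjusted p under 0.05 (0.00% of all genes), 8 did so unadjusted, where 11.4% of all genes did, and all 8 had the larger value in reaction 2, in which 6.53% of all genes did. NFE2L2 lay between 357 and 406 CPM in untreated and 333 and 352 CPM in maraviroc-treated mice of reaction 1, and between 359 and 407 CPM and 425 and 488 CPM in reaction 2. In each reaction the treatments did not overlap, in opposite directions, and the difference of the log2 fold changes was 0.47 ± 0.13 (adjusted p = 0.238, edgeR), called by DESeq2 with an adjusted p of 0.0211. SQSTM1 had means of 288 and 238 CPM in reaction 1 and 222 and 282 CPM in reaction 2, a difference of 0.71 ± 0.21 (adjusted p = 0.279, edgeR). TXN had means of 318 and 260 CPM and of 246 and 322 CPM, a difference of 0.77 ± 0.26 (adjusted p = 0.322). The reactions held different mice and differed in depth, with medians of 4836 and 12866.5 UMIs per macrophage, so animals and depth cannot be told apart here.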

How the data were processed

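Per the labels, polyA RNA of sorted human CD45+ cells was captured with 10x 3′ chemistry, and the submitters' notes name Cell Ranger 9.0.1, GRCh38 and Seurat 5.1.0. The deposited matrices hold raw UMI counts per gene and hashtag, which the authors left unnormalized. Barcodes were assigned to mice with HTODemux (Seurat 5.3.0, centred log ratio, quantile 0.99), and only singlets with over 600 and at most 6000 genes and under 12.5% mitochondrial UMIs were kept. No further doublet caller was run. Classes were gated on marker UMIs per 10000, such as at least 20 for macrophages, 4 for conventional dendritic cells and 10 for a macrophage state, with at least 3 marker UMIs (2 for dendritic cells) and limits on markers of other classes. Macrophages of no state were limited to 5 on the same scale for state markers, and macrophages that met neither limit entered no state comparison. Gate limits were set with the data in view, and the members and lists were chosen with earlier results of these data known.

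Counts were summed per mouse and class with at least 10 cells. The main test was edgeR 4.0.16 (R 4.3.3), quasi-likelihood, TMM scaling and filterByExpr, with the mouse as a term between classes and no block between treatments, calling genes at an adjusted p under 0.05 over all genes tested. Standard errors were taken from the log2 fold change and its F value. Intervals of log2 fold changes were computed from them with the normal distribution, and can be too narrow with few mice. DESeq2 1.42.0 was an alternative, and both tools were tested on simulated data. Python 3.11.15 with numpy 2.4.6, pandas 2.3.3, scipy 1.17.1 and matplotlib 3.10.9 did the rest.

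UMIs of kept cells per mouse ranged from 5996882 to 14782548. Intervals on pooled values cover counting error only. The genes named were each member in its highest class, up to 3 called members of each role with the largest change in each comparison between classes, and the 3 members with the lowest p in each treatment comparison. Members outside this rule were named after their values were seen. Human promoter and protein sequences were not used here, so no motif was counted. Treatment in tumor cells could not be tested, since no untreated mouse had 10 of them. Alternatives were library size scaling, no count filter, DESeq2, over 1000 genes per cell, gates at 2 times the limit, a hashtag quantile of 0.95, each reaction alone and the reaction as a block. Chosen after seeing the data were cells of 1 state only, macrophages without tumor-marker UMIs or low in monocyte markers, unshared barcodes, and each mouse left out where a group held 5 or fewer.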

Additional observations from a re-analysis of the deposited data

Results flagged for a closer look

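In all macrophages, 76 groups of 7 mice (each of the 38 genes in each treatment) were examined for a mouse far from the rest of its group by Dixon's ratio, and 5 were marked, where chance marks about 1 in 20. Untreated mouse 1 of reaction 2 was low in NQO1 at 2.02 CPM, where the group's median was 5.90 CPM and its highest value 7.00 CPM, and in GCLM at 24.5 CPM with a group median of 38.3 CPM. Maraviroc-treated mouse 3 of reaction 2 was high in MGST1 at 23.6 CPM with a group median of 7.41 CPM, and in PGD at 156 CPM with a group median of 125 CPM. Untreated mouse 1 of reaction 1 was high in PRDX1 at 972 CPM with a group median of 534 CPM. No member's treatment difference differed between the reactions at an adjusted p under 0.05 by edgeR, and DESeq2 called NFE2L2.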

How the results depend on the processing

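Of 1343 values of named members between classes under the alternatives, 1108 kept their direction and their call, 232 kept the direction without the call and 3 turned, and of 412 treatment values 400 kept direction and side of the threshold, 4 passed it and 8 turned. Counts of members called moved by over 1.5 times as follows. In GLUT1 macrophages (7) there were 2 with gates at 2 times the limit, 4 in reaction 1 alone and 3 in reaction 2 alone. In MT1G macrophages (15) there were 3, 3 and 7 under these, 9 without tumor-marker UMIs and 0 among macrophages low in monocyte markers. CXCL10 macrophages (8) gave 5 on library size alone, 3 and 5 in the reactions alone, 3 with cells of 1 state only and 4 low in monocyte markers. IL1A/CCL20 macrophages (8) gave 5 by DESeq2, 1 and 3 in the reactions alone, 5 without tumor-marker UMIs and 5 low in monocyte markers. Conventional dendritic cells (14) gave 7 in reaction 1 alone. Tumor cells (17) gave 9 by DESeq2 and 9 to 12 with a mouse left out. Without the count filter, 1 member (TXN) was called for treatment in conventional dendritic cells and 3 for treatment by reaction, where DESeq2 called 1. Fewer mice and cells enter each reaction alone and the stricter gates, and for the other settings the cause was not tested. The share of all genes called is not given beside these counts, so they do not show whether the members moved apart from all genes.

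Library size alone moved the median log2 fold change of all genes from -0.03 to -0.23 in GLUT1 macrophages, from 0.00 to -0.12 in IL1A/CCL20 macrophages, from -0.07 to -0.23 in dendritic cells, from 0.03 to 0.31 in T and NK cells and from -0.23 to 0.05 in tumor cells, and no named call between classes turned there. The turned values were GSR in MT1G macrophages (-0.0428, reaction 1 alone), MGST2 in CXCL10 macrophages (-0.0621, low in monocyte markers) and UGDH in tumor cells (-1.05 to 2.16 with a mouse left out). For treatment, they were SLC7A11 in all macrophages (-0.43 with stricter gates and -0.16 in reaction 1), NFE2L2 (-0.00519, reaction 2) and BACH1 (-0.00907, no tumor-marker UMI) in GLUT1 macrophages, GSS in LYVE1 macrophages (0.0508, reaction 1), NFE2L2 (-0.0540, reaction 1) and GSTP1 (0.19, reaction 2) in those of no state, and BACH1 in T and NK cells (-0.12, reaction 1). The replicate block, with the reaction as a block, gave 0 members called for treatment in each class, and numbers of mice pair nothing across treatments. Some alternatives gave no value for want of mice, among them tumor cells within a reaction and dendritic cell treatment within a reaction.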
